A study of Setaria viridis with 32 samples.

Results

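A set of 101 loci of *Setaria viridis*, of 38334 loci counted, had its highest transcript level in seed heads at anthesis in both ecotypes studied. The loci were selected on measured values. A locus entered the set if its mean level at anthesis was at least 10 CPM (counts of a locus per 1000000 counts of the library) and at least 2 times its mean at each of the other stages, in A.10 and in ME034V, with 0.5 CPM added to both sides of each ratio. The smallest log2 ratio of anthesis to another stage over both ecotypes served as the score. The rule allowed for 200 loci, but 101 met it, so all were kept. It passed over 177 loci that the study lists for sugar transport and sugar metabolism. The peak at anthesis is therefore how the set was made and was not tested. What was tested here is what the rule did not use, namely the levels of the other stages against each other and the levels of the ecotypes against each other. At anthesis, though, the floor of 10 CPM in both ecotypes bears on the comparison of the ecotypes.

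*Setaria viridis* is a wild C4 grass related to foxtail millet. A.10 is the ecotype on which most work has been done, and ME034V is the one used for transformation. The labels name no treatment and no transgene. Whole heads were collected when 50% had emerged (50% SH), when they flowered (anthesis), and then 8 and 16 days later (DAA, days after anthesis), with 4 replicates of each ecotype and stage, each a pool of individual plants, which gave 32 poly(A) RNA-seq libraries in 8 groups. The libraries held 4557079 to 21175874 counts (median 8178992). No 2 libraries of a group were identical.

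Anthesis is the opening of the grass floret, when anthers are extruded and shed pollen and the stigmas receive it. Mature pollen carries stored transcripts that serve germination and the growth of the pollen tube, and the fertilised floret then turns to grain growth. A whole seed head at that time holds anthers, pistils, glumes, bristles and stem tissue together, and its florets do not all open at once. In such bulk samples, fewer cells of a type and less RNA per cell cannot be told apart. The count tables identify the loci by number only and none of the 38334 identifiers could be paired with a gene name in the reference table used here, so no role is given for any of the 101 loci and no list of cell type markers could be applied.

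The 101 loci together took 0.527% ± 0.0461 (SD, n = 4) of all counts in A.10 seed heads at anthesis. Their share was 0.0723% ± 0.0187 at 50% SH, 0.0638% ± 0.0399 at 8 DAA and 0.0258% ± 0.00262 at 16 DAA (SD, n = 4 each). In ME034V the share was 0.638% ± 0.0867 at anthesis, against 0.167% ± 0.0237 at 50% SH, 0.184% ± 0.0623 at 8 DAA and 0.0891% ± 0.0199 at 16 DAA (SD, n = 4 each). The ME034V heads thus held a larger share at every stage, 1.21 times that of A.10 at anthesis and 2.31, 2.88 and 3.45 times at 50% SH, 8 DAA and 16 DAA.

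**Figure D1:**
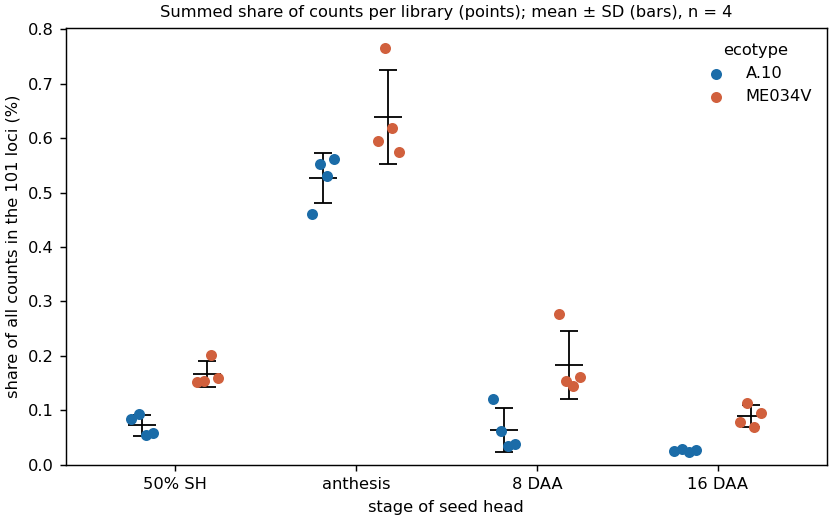
Share of all counts (%) taken by the 101 loci in each of the 32 libraries (points), by stage of the seed head and ecotype, with the mean and SD of each group of 4 (bars). A.10 lies between 0.461 and 0.562% at anthesis and ME034V between 0.574 and 0.765%, and all libraries of the other stages lie at or under 0.277%.

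The level of the median locus in A.10 was 23 CPM at anthesis and 1.05, 2.75 and 0.656 CPM at 50% SH, 8 DAA and 16 DAA. In ME034V it was 31 CPM at anthesis and 3.51, 10.8 and 5.02 CPM at the other stages. The median ratio of anthesis to 50% SH, 8 DAA and 16 DAA was 17.9, 6.94 and 22.7 in A.10 and 7.61, 2.69 and 6.12 in ME034V. These ratios describe what the rule chose. Every A.10 anthesis library was above every other A.10 library for 100 of the 101 loci, and the same held in ME034V for 92, against 5.81% and 3.04% of all loci tested, which again follows from the choice of the members. The second-highest stage was 8 DAA for 66 loci in A.10 and 76 in ME034V, 50% SH for 30 and 24, and 16 DAA for 5 and 1, and it was the same stage in both ecotypes for 83 loci.

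**Figure D2:**
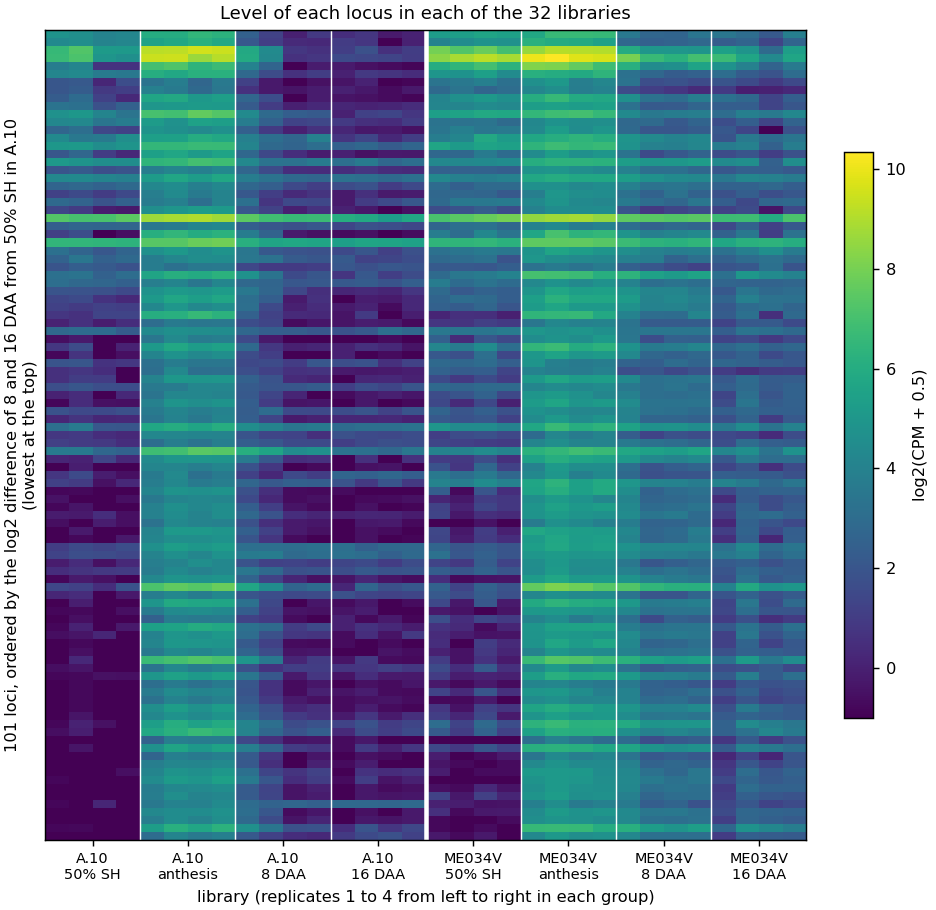
Level of each of the 101 loci, as log2(CPM + 0.5), in each of the 32 libraries, with the groups split by white lines and the replicates in order 1 to 4 within each group. Loci at the top were present before anthesis and nearly gone after it, loci at the bottom were nearly absent before it, and in A.10 the first of the 4 libraries at 8 DAA is brighter than the others.

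ME034V decided which loci passed. The smallest ratio lay in ME034V for 98 of the 101 loci, and it was that of anthesis to 8 DAA for 74, to 50% SH for 23 and to 16 DAA for 1. In A.10 alone 291 loci met the thresholds and in ME034V alone 160. Of the 190 that met them only in A.10, 111 missed in ME034V because anthesis was less than 2 times 8 DAA and 89 because it was less than 2 times 50% SH, and a locus could miss on both. Of the 59 that met them only in ME034V, 47 were under 10 CPM at anthesis in A.10. The last loci inside were *Sevir.3G088200* and *Sevir.4G227800*, with scores of 1.0091 and 1.0048. The first outside were *Sevir.7G205600* and *Sevir.7G238600*, with scores of 0.9998 and 0.9991, so nothing in the values sets the members apart at the threshold. With library sizes scaled by the trimmed mean of M values (TMM) in place of the plain totals, 67 of the 101 remained and no locus was added.

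*Sevir.3G270200* (chromosome 3, 21970692 to 21972771, + strand, in the coordinates of the count tables) had the highest score, 2.72. Its level at anthesis was 67.2, 71.9, 97.5 and 78.6 CPM in the A.10 libraries and 85.6, 91.3, 96.2 and 57 CPM in the ME034V libraries. At 50% SH it was 1.21, 1.03, 1.97 and 2 CPM in A.10 and 0.629, 1.01, 0.964 and 0.507 CPM in ME034V. At anthesis the ecotypes overlapped, and neither showed more than 2 CPM before it. After anthesis they parted, with 5.28, 1.88, 0.766 and 0.732 CPM in A.10 at 8 DAA against 15.8, 7.92, 7.57 and 17.2 CPM in ME034V. At 16 DAA the levels were 0.259, 1.43, 0 and 0.472 CPM in A.10 against 4.41, 8.65, 0.948 and 6.95 CPM in ME034V. Every ME034V library was above every A.10 library at 8 DAA, and at 16 DAA only the lowest ME034V library lay within the A.10 range. The log2 difference, ME034V minus A.10, was −0.01 ± 0.33 (SE) at anthesis (adjusted p = 1), 2.38 ± 0.45 at 8 DAA (adjusted p = 0.0002) and 3.17 ± 0.63 at 16 DAA (adjusted p = 0.00025; edgeR quasi-likelihood test).

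The next scores were those of *Sevir.1G350000* (2.49), *Sevir.3G306900* (2.24), *Sevir.9G270800* (2.21), *Sevir.2G270000* (2.13), *Sevir.7G004200* (2.11), *Sevir.9G274900* (2.04), *Sevir.9G081400* (2.04), *Sevir.9G275100* (2.00) and *Sevir.1G210400* (1.99). *Sevir.1G350000* was at 23.9, 29.6, 38.4 and 34.3 CPM in A.10 at anthesis and at 15.4, 22.6, 22 and 22.2 CPM in ME034V, where every library was below every A.10 library. The log2 difference, −0.69 ± 0.32 (SE), did not pass the test (adjusted p = 0.17), nor did that of *Sevir.1G210400*, −0.40 ± 0.25 (SE, adjusted p = 0.34, edgeR). *Sevir.9G270800* and *Sevir.2G270000* each overlap another annotated locus, as do 7 of the 101 in all, 6 of them a locus on the opposite strand. Reads were counted without regard to strand, so the counts of such a pair cannot be told apart.

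By CPM, which is not divided by locus length, the most abundant member was *Sevir.5G445800* (chromosome 5, 44942789 to 44943472, − strand). Its anthesis libraries held 699, 713, 398 and 557 CPM in A.10 and 1075, 1299, 877 and 818 CPM in ME034V, and the ecotypes did not overlap. *Sevir.4G177500* (chromosome 4, 15366068 to 15367075, − strand) came next, at 574, 596, 755 and 701 CPM in A.10 and 381, 555, 542 and 523 CPM in ME034V, in the opposite order of the ecotypes. Neither ecotype difference at anthesis passed the test, with log2 differences of 0.72 ± 0.60 (SE; adjusted p = 0.52) and −0.46 ± 0.56 (adjusted p = 0.69, edgeR). Per length, on the deposited log2 FPKM scale (fragments scaled to locus length and library size), the same loci led the set in both ecotypes, *Sevir.5G445800* with mean levels of 9.62 ± 0.38 (SD, n = 4) in A.10 and 10.40 ± 0.32 in ME034V. The 101 loci spanned −0.119 to 9.62 log2 FPKM at anthesis in A.10 (median 3.28). In ME034V they spanned −0.002 to 10.40 (median 3.68).

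The levels before and after anthesis, which the rule did not compare with each other, divided the members. Against 50% SH, the mean of 8 and 16 DAA was higher for 35 and lower for 24 of the 101 loci in A.10, and higher for 61 and lower for 18 in ME034V (edgeR, adjusted p under 0.05). Over all loci tested, 40.7% rose and 34.9% fell in A.10 and 32.8% rose and 32% fell in ME034V. In this fit the members' 34.7% and 23.8% in A.10 lay under that background in both directions. For the rises this depended on the fit. DESeq2 in place of edgeR gave 43 rises in A.10, beside 33.4% of all loci. Without a filter on low values there were 37, beside 30.3%, and in a joint fit of all 32 libraries 40, beside 37.5%. In ME034V the members' 60.4% by the edgeR test lay over the background for rises and their 17.8% under it for falls. The median log2 difference was 1.20 in A.10 and 1.22 in ME034V, against 0.08 and 0.02 over all loci tested. These medians were the same with the 8 loci that had no count at 50% SH in A.10, and the 2 in ME034V, set to the bound that 3 counts over the group allow. At 50% SH the mean was under 1 CPM for 49 loci in A.10 and 24 in ME034V. Such loci could pass the filter on low values (over 1 CPM in 3 or more libraries) through the anthesis level that the rule asked for. In both ecotypes 30 loci rose and 16 fell, while 4 had opposite calls, 9 were called in A.10 only, 29 in ME034V only and 13 in neither. The share of all loci called alike in both ecotypes was not computed. These 30 and 16 loci are therefore described below without a background. With plain library totals in place of TMM, a setting added after the data were seen, 31% of all loci rose and 43.1% fell in A.10 and 25% rose and 41% fell in ME034V, and the median over all loci moved to −0.12 and −0.18. The members' counts under that setting were 33 and 28 in A.10 and 56 and 21 in ME034V. Without replicate 1 of 8 DAA in A.10, a library described further on, 36 members rose and 31 fell there, beside 40.3% and 35.3% of all loci. Their median log2 difference was then 0.63. The A.10 libraries of 50% SH also differed. The members took 0.0832% and 0.093% of the counts in replicates 1 and 2, of 12386386 and 10710201 counts. In replicates 3 and 4, of 4557079 and 5488801 counts, they took 0.0541% and 0.0591%.

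**Figure D3:**
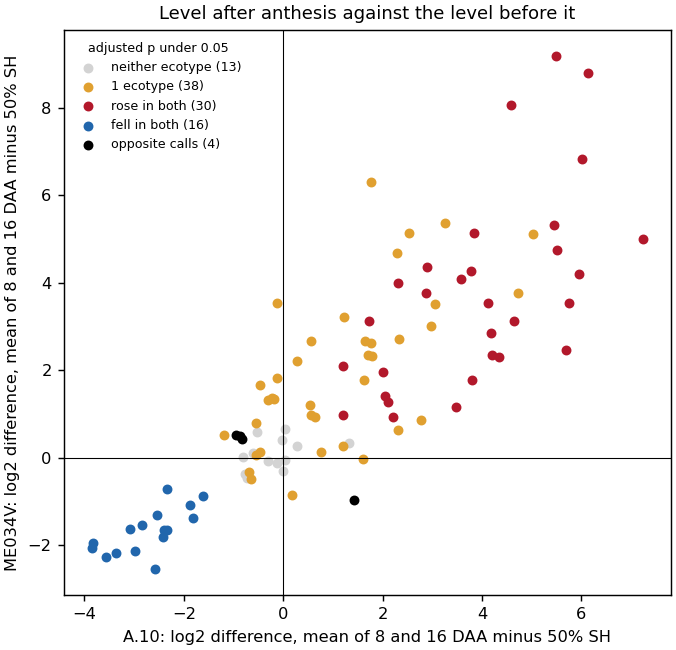
Log2 difference of the mean of 8 and 16 DAA from 50% SH for each of the 101 loci, in A.10 (x axis) and ME034V (y axis), coloured by the calls at an adjusted p under 0.05. The 30 loci that rose in both ecotypes (red) lie at the upper right, and the 16 that fell in both (blue) lie at the lower left.

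The 30 loci that rose in both had a median of 0.0902 CPM at 50% SH in A.10 and 1.06 CPM in ME034V, with the highest means at 9 and 17.7 CPM. Their medians were 22 and 29.7 CPM at anthesis, 3.35 and 12 CPM at 8 DAA, and 0.743 and 5.01 CPM at 16 DAA, in A.10 and ME034V respectively. *Sevir.4G227800* (chromosome 4, 33086400 to 33087653, − strand) had the lowest adjusted p among the rises in ME034V, with 39.9, 69.9, 52.2 and 78.4 CPM in A.10 and 95.6, 99.2, 97.6 and 65 CPM in ME034V at anthesis. At 50% SH it had 2 counts in all 4 A.10 libraries together and 2 in the ME034V libraries. At 8 DAA it was at 25.2, 9.98, 3.07 and 3.24 CPM in A.10 and at 69.8, 37.6, 28.9 and 40.8 CPM in ME034V. At 16 DAA it was at 0.907, 3.31, 1.25 and 2.15 CPM in A.10 and at 6.47, 27.4, 18.8 and 13.3 CPM in ME034V. All 16 libraries from after anthesis were above all 8 from before it. Its pooled rate after anthesis was 102 times that at 50% SH in A.10 (exact 95% interval 28.1 to 845) and 569 times in ME034V (157 to 4705), intervals that cover counting error only, with adjusted p = 0.00016 and 4.5e-09 (edgeR).

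*Sevir.1G217500* (chromosome 1, 29177331 to 29182799, − strand) rose with the lowest adjusted p in A.10 and then held its level there. It was at 0.0807, 0, 0.658 and 0 CPM at 50% SH, 11.2, 15.8, 15.2 and 20.8 CPM at anthesis, 7.54, 5.64, 6.13 and 5.13 CPM at 8 DAA and 6.74, 6.61, 6.23 and 6.87 CPM at 16 DAA. The late libraries differed little among themselves and did not overlap those of 50% SH. The log2 difference from 50% SH was 5.75 ± 0.42 (SE, adjusted p = 9.7e-10, edgeR), and from 8 to 16 DAA it was 0.19 ± 0.22 (adjusted p = 0.59). In ME034V the locus reached 14.4, 23, 12.2 and 15 CPM at anthesis and declined to 2.2, 3.68, 1.9 and 2.53 CPM at 16 DAA, below every A.10 library of that stage. It was the only member lower in ME034V than in A.10 at any stage by the test, with a log2 difference of −1.42 ± 0.33 at 16 DAA (adjusted p = 0.0015).

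The 16 loci that fell in both were already present before anthesis, with a median of 15.2 CPM at 50% SH in A.10 and 27.6 CPM in ME034V. Their medians were 54.1 and 68.3 CPM at anthesis, 2.72 and 7.27 CPM at 8 DAA and 0.795 and 5.63 CPM at 16 DAA. Both of the most abundant members belonged to them. *Sevir.5G445800* was at 102, 139, 29.8 and 24.8 CPM at 50% SH in A.10, at 61.1, 19.4, 1.02 and 1.26 CPM at 8 DAA and at 2.46, 2.2, 1.99 and 1.52 CPM at 16 DAA. In ME034V it was at 330, 464, 570 and 469 CPM at 50% SH, 256, 101, 76.1 and 125 CPM at 8 DAA and 106, 49.6, 19.5 and 49.8 CPM at 16 DAA. In A.10 the highest late library lay within the range of 50% SH, and in ME034V all late libraries lay below all of 50% SH. The log2 difference of the late stages from 50% SH was −3.37 ± 0.66 in A.10 (SE, adjusted p = 0.00019) and −2.17 ± 0.33 in ME034V (adjusted p = 1.8e-05, edgeR).

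*Sevir.7G198000* (chromosome 7, 25474211 to 25475362, − strand) fell with the lowest adjusted p in A.10. Its levels there were 28.2, 23.7, 16.5 and 18 CPM at 50% SH, 64.1, 63.6, 88.6 and 76.8 CPM at anthesis, 5.19, 1.88, 0.511 and 1.36 CPM at 8 DAA and 0.907, 1.21, 0.374 and 0.577 CPM at 16 DAA. In ME034V they were 37.6, 40.1, 48.3 and 42.6 CPM at 50% SH, 56, 101, 98 and 96.3 CPM at anthesis, 11, 6.25, 5.83 and 10 CPM at 8 DAA and 10.3, 7.69, 3.93 and 14.5 CPM at 16 DAA. No late library reached the level of any library from 50% SH in either ecotype. The log2 difference was −3.85 ± 0.30 in A.10 (SE, adjusted p = 2e-09) and −2.06 ± 0.23 in ME034V (adjusted p = 6.3e-07), and the fall was smaller in ME034V by 1.80 ± 0.43 (adjusted p = 0.007, interaction term in edgeR). *Sevir.7G340444*, which fell with the lowest adjusted p in ME034V, went from 30.1, 27.2, 41.9 and 21.8 CPM at 50% SH to 8.83, 6.47, 4.47 and 5.28 CPM at 8 DAA there, a late difference of −2.12 ± 0.21 (SE, adjusted p = 9.8e-08).

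The change from 50% SH to the late stages differed between the ecotypes by that interaction term for 11 loci with ME034V above A.10 and for 3 with ME034V below, against 4.94% and 4.11% of all loci tested. *Sevir.3G270200* was among them, at −0.13 ± 0.56 (SE) in A.10 and 3.54 ± 0.50 in ME034V on the log2 scale, a difference of 3.69 ± 0.86 (adjusted p = 0.0059). *Sevir.9G402100* had opposite calls. It went from 18.9, 20.4, 16.9 and 14.8 CPM at 50% SH to 13.5, 9.39, 6.77 and 6.28 CPM at 8 DAA in A.10, and from 19, 14.7, 13.5 and 15.5 CPM to 39.2, 26.6, 21.3 and 19.3 CPM in ME034V. At 16 DAA it was at 9.07, 8.26, 6.86 and 8.5 CPM in A.10 and at 11, 18.1, 15.3 and 12.8 CPM in ME034V. The ecotypes overlapped before anthesis and were separate after it, and in ME034V the level was above that of 50% SH at 8 DAA but not at 16 DAA. Its late log2 difference was −0.86 ± 0.16 in A.10 (SE, adjusted p = 0.00011) and 0.51 ± 0.18 in ME034V (adjusted p = 0.018), and these differed by 1.38 ± 0.25 (adjusted p = 0.00056, edgeR).

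From 8 to 16 DAA the transcripts went on declining. In A.10, 69 of the 101 loci fell and 2 rose, against 12.5% and 13.2% of all loci tested, with a median log2 difference of −2.26 over the members and −0.01 over all loci. In ME034V, 43 fell and none rose by the same edgeR test, against 2.61% and 4.1% of all loci. None rose at an unadjusted p under 0.05 or in DESeq2 either. There the median was −1.12 over the members and 0.01 over all loci. Of these falls 35 were shared by both ecotypes, a count for which the share over all loci was not computed. All 16 DAA libraries lay below all 8 DAA libraries for 14 of the 101 loci in A.10, near the 13.3% of all loci, and for 51 in ME034V, against 8.06%. The difference was negative for 94 loci in A.10 and 98 in ME034V whether or not it passed. The anthesis level that the rule asked for could be enough to pass the filter on low values (over 1 CPM in 3 or more libraries). Means were under 1 CPM for 6 loci at 8 DAA and 61 at 16 DAA in A.10, and for 0 and 1 in ME034V. Falls to such levels rest on few counts. No member's change differed between the ecotypes in the interaction test at an adjusted p under 0.05, which 0.0673% of all loci passed with ME034V above and 0.0712% with ME034V below. At an unadjusted p under 0.05 there were 32 members, against 9.57% of all loci. With plain library totals 10.1% of all loci rose and 16.6% fell in A.10, beside 2 and 71 members, and 3.49% rose and 3.9% fell in ME034V, beside 0 and 53 members.

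These counts rest in large part on 1 library in each ecotype. In A.10 the members' share of counts at 8 DAA was 0.121% and 0.0624% in replicates 1 and 2, and 0.0343% and 0.0379% in replicates 3 and 4. The 8 DAA library of replicate 1 was the highest of its group for 94 of the 101 loci in A.10 and for 94 in ME034V, and for 88 loci it was the highest in both. Over the 13340 loci with at least 10 CPM at anthesis in both ecotypes the same libraries were the highest for 51.4% and 28.6%. Their level was 1.74 (A.10) and 0.90 (ME034V) above the mean of the other 3 libraries at the median locus on the log2 scale. Without that library 25 loci fell from 8 to 16 DAA in A.10, beside 8.92% of all loci, and the median log2 difference was −1.29. Without it 10 fell in ME034V, beside 1.05% of all loci, with a median of −0.76. The direction stayed negative for 91 and 94 of the 101 loci. In ME034V the count also moved without a 16 DAA library, to 24 falls without replicate 1 and 27 without replicate 4. What set these libraries apart was not tested.

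**Figure D4:**
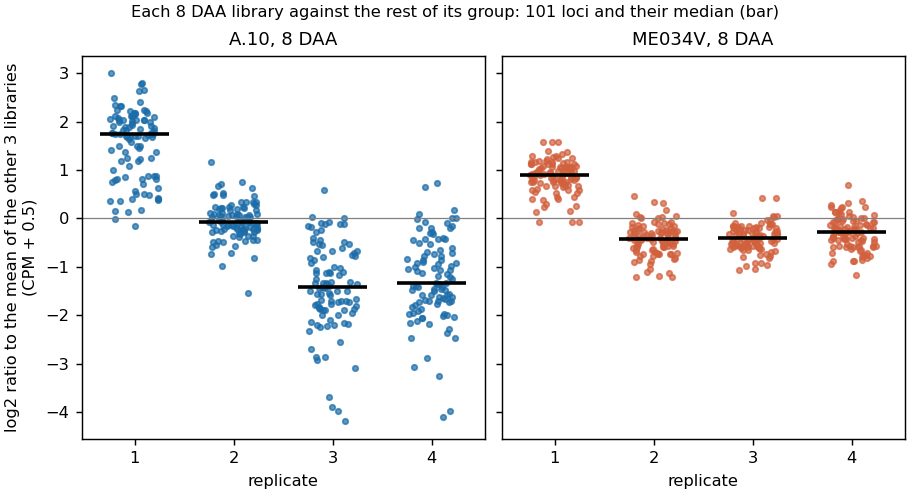
Log2 ratio of each 8 DAA library to the mean of the other 3 libraries of its group (CPM + 0.5) for each of the 101 loci (points), with the median (bar), in A.10 and ME034V. Replicate 1 lies above the others in both ecotypes, with medians of 1.74 and 0.90.

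*Sevir.8G257900* (chromosome 8, 40499757 to 40501982, − strand) had the lowest adjusted p among the falls in A.10, with 14.8, 7.99, 6.13 and 15.3 CPM at 8 DAA and 1.17, 2.09, 0.748 and 1.57 CPM at 16 DAA. Here replicate 4, not replicate 1, was the highest at 8 DAA, and the stages did not overlap. The log2 difference was −2.88 ± 0.38 (SE, adjusted p = 3.9e-05, edgeR). In ME034V the fall with the lowest adjusted p was that of *Sevir.4G023900*, from 15.6, 7.25, 7.94 and 5.61 CPM to 1.65, 3.52, 2.03 and 2.63 CPM, a log2 difference of −1.82 ± 0.33 (SE, adjusted p = 0.0031). Its stages did not overlap either. Of the 2 members that rose in A.10, *Sevir.5G443301* had the lower adjusted p. It went from 2.17, 1.41, 1.41 and 1.67 CPM at 8 DAA to 3.76, 2.87, 3.74 and 3.36 CPM at 16 DAA, a log2 difference of 1.08 ± 0.21 (SE, adjusted p = 0.0011), while in ME034V it was at 0.60 ± 0.33 (adjusted p = 0.33). The other, *Sevir.9G296600*, named after its values were seen, went from 1.79, 0.705, 2.3 and 1.57 CPM to 5.96, 5.18, 6.48 and 4.67 CPM in A.10, a log2 difference of 1.86 ± 0.38 (SE, adjusted p = 0.002), and was at 0.08 ± 0.32 in ME034V (adjusted p = 0.92). Neither locus had overlapping stages in A.10.

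The ecotypes were compared at each stage in a joint fit of all 32 libraries. At anthesis 2 of the 101 loci were higher in ME034V and none was lower, against 7.12% and 7.22% of the 25264 loci tested. At an unadjusted p under 0.05, for which the share over all loci is not given, 15 were higher and 4 lower. The rule asked for at least 10 CPM at anthesis in both ecotypes, a floor that the background did not have. Loci with a large ecotype difference could fail it, as did 47 of the 59 that met the rule only in ME034V. The small count therefore follows in part from the choice of the members. The median log2 difference, ME034V minus A.10, was 0.43, against 0.01 over all loci. This count depends on the fit. No label says that a replicate number marks a shared batch. Deviations of same-numbered libraries correlated between the ecotypes at this stage (r 0.11 to 0.55). With the replicate number as a block 13 loci were higher and 2 lower, beside 7.59% and 7.86% of all loci. With the 8 anthesis libraries alone 24 were higher and 7 lower, beside 7.73% and 8.24% of all loci. DESeq2 found 1 higher, beside 5.86% of all loci. With plain library totals 4 were higher, beside 9.14% of all loci higher and 5.83% lower.

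At 50% SH 43 loci were higher in ME034V and none was lower by the edgeR test, against 8.17% and 7.3% of all loci, and 1 was lower at an unadjusted p under 0.05. DESeq2 found 51 higher and none lower, beside 6.83% and 7.12% of all loci. The replicate block gave 54 higher and 1 lower, beside 8.54% and 8.2%. Not every same-numbered pair of libraries correlated between the ecotypes at this stage (r −0.18 to 0.41). In the 8 libraries of 50% SH alone 70 of the 101 loci passed the filter on low values. Of them 45 were higher and 2 lower, beside 8.25% and 9% of all loci. The other loci entered the joint fit only through their levels at later stages. The median log2 difference was 1.42, or 1.29 with the 6 loci that had no count in A.10 set to the bound of 3 counts over the group. At 8 DAA 86 were higher and none lower, against 11.9% and 9.85%, with a median of 1.90. The difference was above 0 for all 101 loci, so that none was lower at an unadjusted p under 0.05 or in DESeq2. DESeq2 found 83 higher, beside 10.8% of all loci. At 16 DAA 87 were higher and 1 lower, against 15.8% and 12.6%, with a median of 2.96. With the replicate number as a block, 92 were higher at 8 DAA and 91 at 16 DAA, beside 13% and 15.9% of all loci. Without replicate 1 of either ecotype at 8 DAA, a check added after the data were seen, 87 were higher and none lower, with a median of 2.47. Of all loci 11% were then higher and 8.36% lower. Whether the difference at 50% SH, 8 DAA or 16 DAA exceeded that at anthesis was not tested, because it is made of the contrasts that the rule used.

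**Figure D5:**
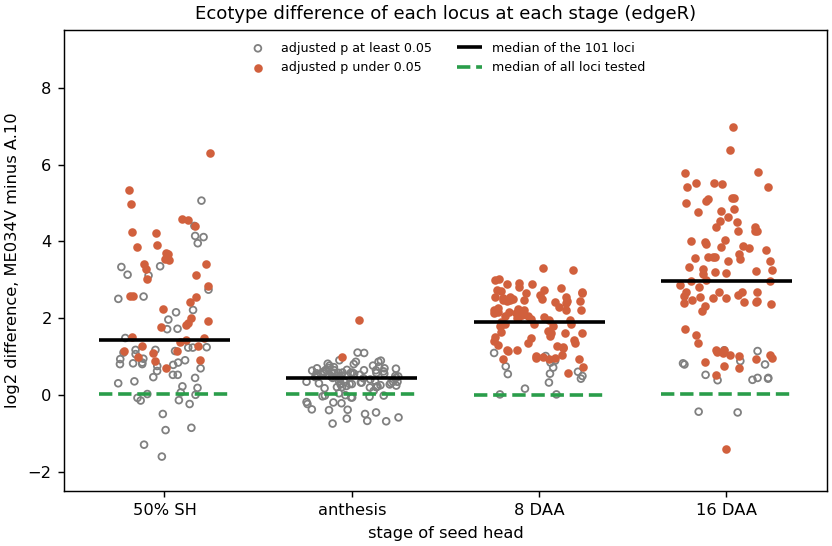
Log2 difference, ME034V minus A.10, of each of the 101 loci at each stage (edgeR joint fit of 32 libraries), filled where the adjusted p was under 0.05, with the median of the 101 loci (solid line) and of all loci tested (dashed line). The medians of the 101 loci were 1.42 at 50% SH, 0.43 at anthesis, 1.90 at 8 DAA and 2.96 at 16 DAA, and those of all loci lay between −0.01 and 0.03.

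*Sevir.8G012725* (chromosome 8, 923711 to 925122, − strand) was the only member higher in ME034V at all 4 stages. At 50% SH it was at 1.78, 1.49, 0.219 and 0.729 CPM in A.10 and at 16.3, 14, 22.4 and 15.3 CPM in ME034V. At anthesis it was at 13.5, 18.4, 12 and 13.9 CPM in A.10 and at 50.5, 80.7, 43.1 and 59.2 CPM in ME034V. The ecotypes were apart at both stages, and the level of ME034V before anthesis overlapped that of A.10 at anthesis. The log2 differences were 3.70 ± 0.37 (SE, adjusted p = 4.8e-09) at 50% SH, 1.96 ± 0.28 (adjusted p = 2.6e-06) at anthesis, 1.85 ± 0.30 (adjusted p = 2.1e-05) at 8 DAA and 2.32 ± 0.34 (adjusted p = 4.8e-06) at 16 DAA (edgeR). The lowest adjusted p at 8 DAA was that of *Sevir.9G402100*, with a log2 difference of 1.51 ± 0.21 (SE, adjusted p = 1.6e-06), and at 16 DAA that of *Sevir.7G198000*, at 3.58 ± 0.47 (adjusted p = 7.3e-07). Of the 30 loci that rose after anthesis in both ecotypes 26 were higher in ME034V at 16 DAA and 1 was lower. Of the 16 that fell 15 were higher. Among all 101 members 87 were higher and 1 was lower. The same 16 DAA libraries had served to form both groups, so these counts are a description only.

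The median coefficient of variation of the members between replicates at anthesis was 21.6% in A.10 and 20.8% in ME034V, against 8.15% and 11% over 13340 loci. In ME034V the library of replicate 2 was the highest for 81 of the 101 loci, beside 15.7% of the 13340 loci. Its median log2 ratio to the mean of the other 3 was 0.44, and without it 85 loci met the rule, 83 of them members. In A.10 the highest library was replicate 2 for 42 loci, replicate 4 for 32, replicate 3 for 23 and replicate 1 for 4. Over the 13340 loci the shares of these A.10 libraries were 24.5%, 34.2%, 18.6% and 22.8%.

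The members lay on all 9 chromosomes, from 3 on chromosome 8 to 18 on chromosome 3. Their loci, measured from start to end with introns, had a median of 2477 bp, against 4018 bp over the 16476 loci with at least 10 CPM at any stage, and 73 of the 101 were shorter than that median. There were 6 pairs of members within 50 kb of each other and 2 pairs with no locus between them. *Sevir.2G099300* and *Sevir.2G099400* (chromosome 2, 8832866 to 8833983 and 8836575 to 8837441, both + strand) lay 2591 bp apart, with mean levels at anthesis of 15.9 and 31.6 CPM in A.10 and 26.3 and 49.8 CPM in ME034V. *Sevir.9G274900* and *Sevir.9G275100* (chromosome 9, 23778160 to 23781193 on the − strand and 23803954 to 23806648 on the + strand) lay 22760 bp apart. Both of these were among the 10 highest scores, and their anthesis means were 27.1 and 23 CPM in A.10 and 41.7 and 42.2 CPM in ME034V. *Sevir.4G177800*, a member at 130, 121, 194 and 157 CPM in A.10 at anthesis, had 1 locus between it and *Sevir.4G177500*, at a distance of 71103 bp. Whether neighbouring loci share sequence was not tested. Only uniquely mapped reads were counted, so that near-identical copies would both be undercounted.

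Of the 177 sugar loci that the rule passed over, 5 met its thresholds. They were *SvSWEET15* (*Sevir.1G174400*) and *SvSWEET6* (*Sevir.5G225300*), of the SWEET family of sugar efflux transporters, a locus listed as a vacuolar invertase (*Sevir.1G004700*), the enzyme that splits sucrose into glucose and fructose in the vacuole, though that assignment is uncertain, a UDP-glucose pyrophosphorylase (*Sevir.1G112300*) and a glucosidase (*Sevir.9G090200*). *SvSWEET15* was at 230, 195, 410 and 299 CPM in A.10 and 258, 277, 366 and 376 CPM in ME034V at anthesis, against 58.9, 53.3, 39.1 and 30.4 CPM and 59.9, 96.6, 78.5 and 56.7 CPM at 50% SH. At 16 DAA it was at 41.6, 46.1, 37.5 and 44.6 CPM in A.10 and at 49.3, 62.3, 268 and 77.3 CPM in ME034V, where replicate 3 reached the range of anthesis. *Sevir.1G004700* was at 219, 221, 259 and 225 CPM at anthesis in A.10 and at 2.98, 5.62, 2.37 and 2.68 CPM at 16 DAA. Over the sugar loci as a whole, 60 of 174 tested rose and 28 fell from 50% SH to anthesis in A.10, against 16.7% and 17.8% of all loci. In ME034V 48 of 175 rose and 10 fell, against 10.4% and 8.14%. From anthesis to 8 DAA, 63 rose and 72 fell in A.10, against 32.2% and 30.4%, and 54 rose and 52 fell in ME034V, against 22.2% and 24.4% (edgeR). With plain library totals the last split became 47 and 68, beside 14.6% and 33.1% of all loci. Of the 17 SWEET loci tested in A.10, 8 rose from 50% SH to anthesis, as did 7 of 16 in ME034V.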

How the data were processed

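Whole seed heads of *S. viridis* A.10 and ME034V were sequenced as poly(A) libraries. Per the submitters' processing notes and the file headers, reads were trimmed with Trim Galore and aligned with Subread 1.6.2 to the v2.1 genome, and uniquely mapped fragments were counted over whole loci, introns included, without strand, with featureCounts 1.5.0-p1. The deposited counts are raw. The deposited log2 FPKM values were made by the authors with edgeR within each ecotype, per kilobase of locus, from loci that exceeded 1 CPM in 3 or more libraries. The sources name 2 Subread releases, and which bears on the counts was not settled.

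CPM was computed from the counts and library totals. Tests used edgeR 4.0.16 (R 4.3.3) quasi-likelihood fits with TMM on loci that exceeded 1 CPM in 3 or more libraries, and Benjamini-Hochberg adjustment over all loci tested. The 16 libraries of an ecotype were fitted together for contrasts between stages, and all 32 for contrasts between ecotypes and for interaction terms. Standard errors were taken from the fold change and the F statistic. The fits were also run on simulated counts in which only loci with enough counts were changed. That run did not cover the low levels that many members had outside anthesis. Alternatives were DESeq2 1.42.0, its size factors, other filters, limma 3.58.1 on the log2 FPKM, a replicate block, other sets of libraries, leaving out each library and, added after the data were seen, plain library totals and 8 DAA without replicate 1.

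Replicate numbers come from the labels. Deviations from the group means correlated between the ecotypes for all 4 same-numbered pairs at anthesis (r 0.11 to 0.55), 8 DAA (0.15 to 0.61) and 16 DAA (0.15 to 0.46). At 50% SH, and between the stages of an ecotype, not every pair exceeded 0.1. Where the numbers do not come from a shared batch, p-values measure the spread between pools only.

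The members and the lists were chosen with earlier results of these data known. Loci were named by fixed rules: the 10 highest scores, the 10 highest CPM at anthesis, the lowest adjusted p in each direction, the loci at the threshold, neighbouring members and the sugar loci that met the thresholds. Of these, the few that the results turn on are given with values. Marker lists of cell types could not be applied, since 0 of 38334 identifiers were paired with names. Counts limit the precision of low levels, and intervals and floors cover counting error only.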

Additional observations from a re-analysis of the deposited data

Results flagged for a closer look

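Among the 20 members with the highest scores or the highest CPM at anthesis, and for the summed share of the set, each of the 8 groups of 4 libraries was examined for a library far from the other 3, in 168 groups in all. By Dixon's criterion 14 values stood out, from 9 libraries. Chance gives about 1 in 20 groups for continuous values. That rate does not hold where the other libraries of a group had no count, since any read then stands out. Values of 1 library are not independent of each other. The summed share of the 101 loci stood out high in replicate 1 of ME034V at 8 DAA (0.277%) and in replicate 3 of ME034V at 50% SH (0.202%). Replicate 1 of 8 DAA was also far above the rest of its group for *Sevir.4G177500* in ME034V (62.9 CPM) and for *Sevir.9G270800* (6.88 CPM) and *Sevir.7G004200* (2.36 CPM) in A.10. Replicate 3 of ME034V at 50% SH was also high for *Sevir.3G048000* (21.7 CPM). At anthesis, *Sevir.1G350000* was low in replicate 1 of ME034V (15.4 CPM) and *Sevir.9G081400* in replicate 3 of A.10 (13.8 CPM).

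The other values that stood out, all high and all at low levels in A.10, were replicate 2 at 50% SH for *Sevir.9G274900* (0.0934 CPM), *Sevir.9G081400* (0.467 CPM) and *Sevir.9G365400* (0.747 CPM), and at 16 DAA replicate 1 for *Sevir.3G306900* (0.13 CPM), replicate 3 for *Sevir.7G004200* (0.125 CPM) and replicate 2 for *Sevir.9G365400* (1.32 CPM). For all of these but the last, the other libraries of the group held no count.

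The change from 50% SH to the mean of 8 and 16 DAA differed between the ecotypes for 2 of these 20 members by the interaction term. It was higher in ME034V by 3.69 ± 0.86 (SE, adjusted p = 0.0059) for *Sevir.3G270200* and by 0.63 ± 0.16 (SE, adjusted p = 0.0096) for *Sevir.2G208500* on the log2 scale (edgeR).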

How the results depend on the processing

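No named locus that passed a test changed direction under another setting. Some counts changed sides against all loci tested. The rises of the late stages over 50% SH in A.10 went from 35, beside 40.7%, to 43 with DESeq2, beside 33.4%. At anthesis the loci higher in ME034V went from 2, beside 7.12%, to 24 with the 8 libraries of the stage alone, beside 7.73%. The 71 calls from 8 to 16 DAA in A.10 became 45 with limma on log2 FPKM and 27 to 79 when each library was left out in turn, and the 43 in ME034V became 10 to 51. The cause of the difference for limma was not tested. The 2 loci that differed between the ecotypes at anthesis became 1 with DESeq2 size factors, with DESeq2 and with a stricter filter (over 5 CPM in 4 or more libraries), 4 with plain library totals, 15 with the replicate block, 31 with the 8 libraries of the stage alone and 1 to 3 with each library left out. The replicate block left every other count within 1.5 times, among them 61 and 32 calls from 8 to 16 DAA in A.10 and ME034V. Between the stages of an ecotype, only for 50% SH and 8 DAA in A.10 did all 4 libraries correlate best with their own number (r 0.08 to 0.19). The rule gave 67 loci with TMM-scaled CPM, 8 at a 4-fold threshold and 85 to 124 with each library left out, of which 83 to 101 were members. Leaving out each library gave 53 to 67 and 74 to 82 calls for the late stages against 50% SH in A.10 and ME034V. Between the ecotypes it gave 36 to 44 at 50% SH, 72 to 94 at 8 DAA and 84 to 89 at 16 DAA. For the sugar loci it gave 78 to 86 and 125 to 138 in A.10 and 44 to 58 and 97 to 105 in ME034V, from 50% SH to anthesis and from anthesis to 8 DAA. Levels near 0.1 CPM rest on about 1 count per library, so differences between levels this low were not detectable at this depth.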
